A study of Mus musculus with 3 samples.

Results

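The 10 genes described here are NF-kB feedback genes (Nfkbia, Nfkbiz, Tnfaip3 and Rel), the adhesion gene Icam1, the chemokines Ccl3, Ccl4 and Cxcl2, and the cytokines Il1b and Tnf. They were picked by symbol, and all 10 were found among the 28074 gene symbols of the deposited table, each on a single row. Their RNA was measured in 1 group of 3 acute myeloid leukemias (AML), taken from the spleens of 3 different moribund mice with the genotype miR196b-/-Dnmt3afl/fl,Flt3ITD/ITD,Mx1Cre. All 3 mice thus lacked the microRNA miR-196b, carried an internal tandem duplication of the receptor Flt3 on both alleles, and carried floxed Dnmt3a, the gene of a DNA methyltransferase, with a Cre recombinase driven by the interferon-inducible Mx1 promoter. The sample titles give 1 lost Dnmt3a copy (Dnmt3a+/-), while the genotype field gives both alleles as floxed. Age, sex and the agent used to induce Cre are not given in the sources used here. After lysis of red cells, magnetic beads were used to enrich for c-Kit, a receptor found on immature blood cells, so each library mixes leukemic cells with whatever else was retained. The numbers 1, 2 and 3 follow record order and serve only as names of the mice. Control leukemias with miR-196b intact are samples of another series and were not used. With 1 group no test was possible: each value below describes the knockout leukemias, the error is the spread between mice, and nothing shows an effect of the deletion.

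NF-kB is a family of dimeric transcription factors (Rel, Rela, Relb, Nfkb1 and Nfkb2) that IkB proteins hold in the cytoplasm. Signals from Toll-like, tumor necrosis factor and interleukin-1 receptors activate a kinase complex that marks IkB for degradation, and the freed dimers switch on cytokines and chemokines together with their own inhibitors. In myeloid cells these genes are known for fast, short-lived induction, because the feedback inhibitors shut the factor off and many of the mRNAs carry AU-rich elements that bring about their decay.

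The values are TPM, a measure of transcript abundance scaled to a fixed total and by transcript length, so that levels of different genes can be compared. The 3 columns summed to 929731, 927169 and 928490 TPM. The labels give a plan of 30000000 reads per library, and TPM does not show the depth that was reached. Expressed genes are the 15181 with a mean of at least 1 TPM over the mice, and all 10 genes were among them. The labelled cell type was checked on 10 markers of immature myeloid cells, and all 10 were among the expressed genes. Of these, Mpo stood between 864 and 1632 TPM, Sfpi1 (the older symbol of Spi1) between 185 and 264, Kit between 133 and 149 and Flt3 between 106 and 157. Ptprc, which encodes the leukocyte marker CD45, stood at only 2.25 to 3.09 TPM. The reason for this low value was not tested, and it does not give the amount of CD45 protein on the cells.

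The promoters of the genes are shown first, because kB sites are the sequences through which NF-kB acts. RefSeq promoter sequences (GRCm38.p6, the mm10 build that the submitters' processing notes name) were matched for 8 of the 10 genes, Tnfaip3 with 2 start sites. Nfkbiz and Ccl4 had no entry. The 250 bases before each start were searched on both strands for the canonical kB consensus decamer and for the shorter letters GGAANNTCC and GGAANTCC, which can overlap the decamer. These motifs were chosen with the genes' identity and values known. The decamer was found for 4 of the 8 genes (Nfkbia, Tnfaip3, Rel and Cxcl2), against 7.25% of all 32851 promoters of the same length. The 9-base motif was found for Nfkbia, Tnfaip3, Cxcl2, Icam1 and Tnf, against 3.59% of all promoters. The 8-base motif was found for Tnfaip3 and Rel, against 4% of all. At least 1 of the motifs was present for 6 of the 8 genes, against 12.3% of all promoters. The windows of Ccl3 and Il1b, and the downstream start of Tnfaip3, held none of these letters. The 6 promoters with a match are given 5′ to 3′ on the gene's strand, with all matched bases in capitals.
Nfkbia: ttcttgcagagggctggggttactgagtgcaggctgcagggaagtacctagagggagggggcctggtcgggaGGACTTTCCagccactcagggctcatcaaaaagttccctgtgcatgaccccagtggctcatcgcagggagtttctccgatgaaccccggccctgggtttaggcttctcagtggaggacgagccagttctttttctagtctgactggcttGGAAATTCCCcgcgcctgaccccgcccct
Tnfaip3: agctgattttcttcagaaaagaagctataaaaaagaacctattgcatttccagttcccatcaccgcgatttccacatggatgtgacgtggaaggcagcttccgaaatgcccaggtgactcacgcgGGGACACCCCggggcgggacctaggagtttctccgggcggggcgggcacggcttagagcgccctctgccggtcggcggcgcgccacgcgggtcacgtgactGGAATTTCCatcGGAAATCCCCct
Rel: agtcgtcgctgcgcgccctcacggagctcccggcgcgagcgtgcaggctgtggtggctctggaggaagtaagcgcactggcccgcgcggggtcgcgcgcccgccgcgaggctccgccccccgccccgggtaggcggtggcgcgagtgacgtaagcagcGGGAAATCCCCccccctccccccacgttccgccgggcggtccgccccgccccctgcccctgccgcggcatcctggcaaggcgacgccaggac
Cxcl2: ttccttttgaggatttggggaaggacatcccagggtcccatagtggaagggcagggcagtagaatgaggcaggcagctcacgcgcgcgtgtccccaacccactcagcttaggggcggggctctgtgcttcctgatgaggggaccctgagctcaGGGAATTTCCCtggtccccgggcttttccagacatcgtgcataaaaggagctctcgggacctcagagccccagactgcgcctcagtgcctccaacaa
Icam1: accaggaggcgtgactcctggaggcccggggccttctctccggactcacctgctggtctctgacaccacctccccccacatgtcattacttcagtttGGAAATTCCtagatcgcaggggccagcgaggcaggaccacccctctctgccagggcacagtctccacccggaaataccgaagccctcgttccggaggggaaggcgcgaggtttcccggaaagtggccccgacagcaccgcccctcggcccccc
Tnf: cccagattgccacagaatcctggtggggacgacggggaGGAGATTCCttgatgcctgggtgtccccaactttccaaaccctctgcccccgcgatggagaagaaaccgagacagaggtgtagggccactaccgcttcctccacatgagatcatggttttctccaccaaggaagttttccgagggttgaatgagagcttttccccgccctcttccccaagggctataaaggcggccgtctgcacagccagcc

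The promoters lie at chr12:55492648-55492897 (minus strand) for Nfkbia, chr10:19015411-19015660 (minus) for Tnfaip3, chr11:23770970-23771219 (minus) for Rel, chr5:90903649-90903898 (plus) for Cxcl2, chr9:21015690-21015939 (plus) for Icam1 and chr17:35202008-35202257 (minus) for Tnf. In Nfkbia, which encodes the inhibitor IkB-alpha, the decamer reads GGGAATTTCC on the opposite strand, between bases 29 and 20 before the start. The same letters occur in Cxcl2 on the gene's own strand, between bases 97 and 88 before the start. In Rel, 2 overlapping decamers on the strand opposite to the gene, GGGATTTCCC and GGGGATTTCC, span bases 92 to 82. Tnfaip3 held decamers at 2 places, of which the one nearest the start, GGGGATTTCC on the opposite strand, ends 3 bases before it. Icam1 carried GGAAATTCC between bases 153 and 145, and Tnf carried GGAATCTCC on the opposite strand between bases 212 and 204. A match describes letters only and does not show that a factor was bound.

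**Figure D1:**
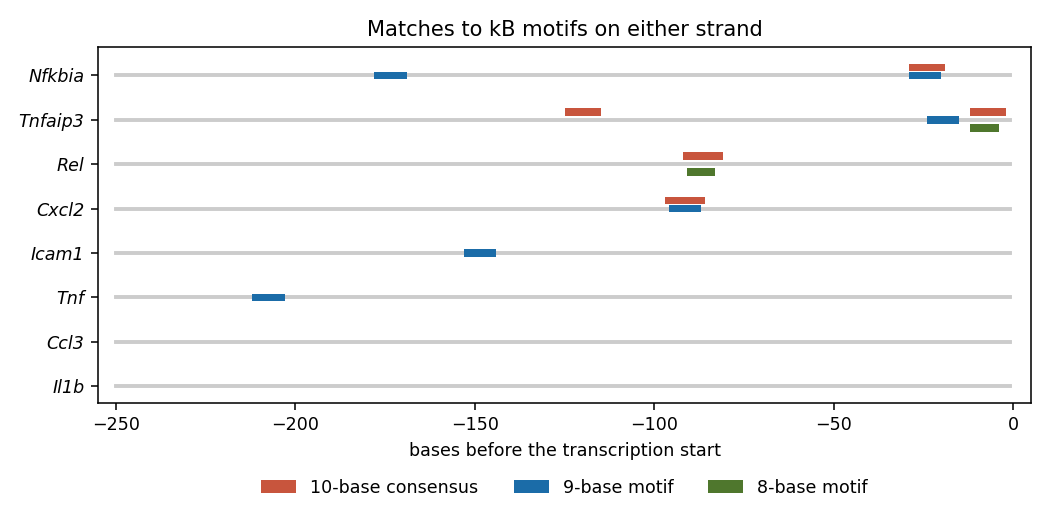
Matches to the kB consensus decamer (10 bases), GGAANNTCC (9 bases) and GGAANTCC (8 bases) on either strand, plotted by distance in bases before the transcription start (x axis) for the 8 genes with a RefSeq promoter. Nfkbia and Tnfaip3 have matches in the last 30 bases before the start, and Ccl3 and Il1b have none; for Tnfaip3 the upstream start is drawn.

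The 3′ untranslated region (UTR) carries the other set of elements for which these mRNAs are known. In the longest UTR annotated per gene in GENCODE M21, the AU-rich nonamer TTATTTATT, a binding motif of the mRNA decay factor encoded by Zfp36, was searched on the transcript strand. It was present in 5 of the 10 genes: 5 times in Tnf, 4 times in Cxcl2, and 1 time each in Nfkbia, Tnfaip3 and Rel. Among all 15799 genes with a UTR between 302 and 5418 nt, the shortest and longest of the 10, 8.51% held it. The overlapping pentamer ATTTA was present in all 10, against 76.6% of those genes. The densest stretches of the genes with several nonamers are shown with the nonamers in capitals, at chr17:35199681-35199710 (minus strand) for Tnf and chr5:90905325-90905354 (plus strand) for Cxcl2.
Tnf: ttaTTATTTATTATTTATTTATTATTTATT
Cxcl2: cTTATTTATTtatctatgtatTTATTTATT

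The deleted microRNA itself, mmu-miR-196b-5p (RefSeq, GRCm38.p6, chr6:52230129-52230150, minus strand), is given with its seed, bases 2 to 8, in capitals.
miR-196b-5p: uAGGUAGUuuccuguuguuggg
The letters complementary to this seed, ACTACCT, were found in the longest UTR of 0 of the 10 genes and in 6.84% of the genes in the same range of UTR length. Absence of these letters from the searched UTRs says nothing about other kinds of site.

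Tnfaip3 and Nfkbia, which encode 2 brakes on NF-kB, were the most abundant of the genes, and the chemokine Cxcl2 was the least. By mean TPM the order was Tnfaip3 (98.4 ± 33.5, SD, n = 3), Nfkbia (92.2 ± 1.37), Ccl3 (75.8 ± 9.88), Ccl4 (48.3 ± 21.4) and Nfkbiz (44.0 ± 6.47). Rel (43.7 ± 13.4), Icam1 (32.6 ± 12.2), Tnf (24.1 ± 4.55), Il1b (15.3 ± 10.6) and Cxcl2 (7.20 ± 3.98) followed. Only Nfkbia and Ccl3 were neighbours in this order whose values did not overlap between mice: the lowest Nfkbia value, 90.8 TPM, was above the highest Ccl3 value, 82.6 TPM. Every other pair of neighbours overlapped in range. Compared within each mouse, the order of Tnfaip3 and Nfkbia, of Ccl4 and Nfkbiz, and of Nfkbiz and Rel differed between mice. The remaining pairs of neighbours kept their order in every mouse. Among expressed genes, Tnfaip3 and Nfkbia stood at percentiles 90.0 and 89.2 of mean level, Tnf at 58.2, Il1b at 46.7 and Cxcl2 at 31.4.

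**Figure D2:**
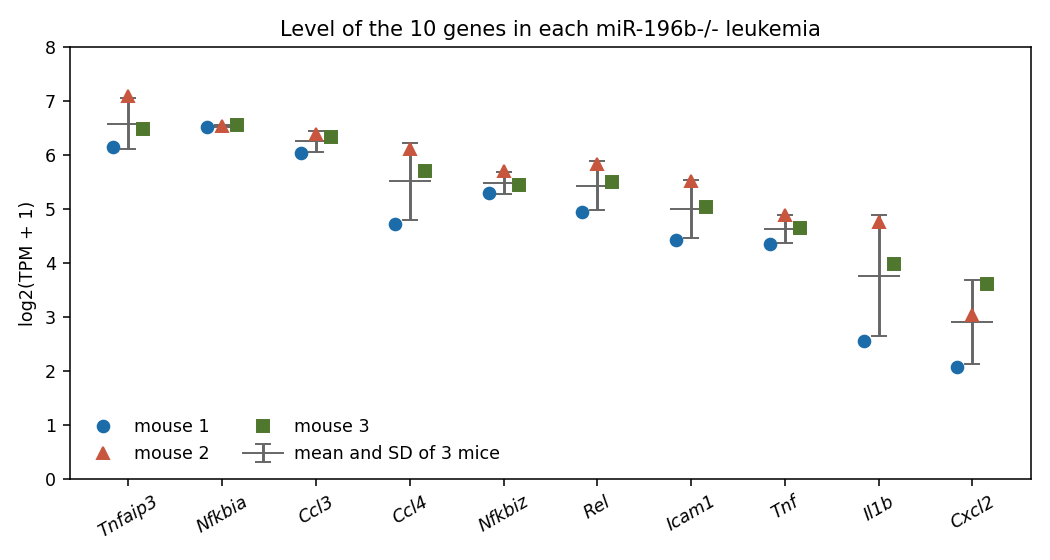
Level of the 10 genes in each of the 3 leukemias on the log2(TPM + 1) scale (y axis), ordered by mean TPM (x axis); symbols are mice, and the bar and whiskers are the mean and SD of the 3 mice. Mouse 1 is the lowest for all 10 genes, by little for Nfkbia (6.52, 6.54 and 6.56 in mice 1, 2 and 3) and by much for Il1b (2.56, 4.76 and 3.99).

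The feedback genes differed among themselves in how far they varied between mice. Nfkbia, the inhibitor that NF-kB resynthesizes first, had 90.8, 92.3 and 93.5 TPM in mice 1, 2 and 3. Its SD was 0.021 on the log2(TPM + 1) scale, and 99.2% of expressed genes had an SD at least as large. In TPM as deposited the gene was thus at nearly the same level in the 3 leukemias. This closeness depends on the scaling: mouse 3 had 1.03 times the TPM of mouse 1 as deposited and 1.14 times after scaling to a common upper quartile.

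Tnfaip3 encodes A20, a ubiquitin-editing enzyme that stops signalling upstream of the kinase complex. It had 70.3, 136 and 89.2 TPM in the 3 mice, an SD of 0.474 on the log2 scale that 10.8% of expressed genes reached. Mouse 2 stood above the others, at 1.93 times the TPM of mouse 1 and 1.52 times that of mouse 3. Nfkbia exceeded Tnfaip3 in mice 1 and 3, with TPM ratios of 1.29 and 1.05, and was below it in mouse 2, with a ratio of 0.681.

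Nfkbiz encodes the atypical nuclear protein IkB-zeta, needed for a later set of inflammatory genes. It had 38.4, 51.1 and 42.6 TPM in mice 1, 2 and 3, and its SD of 0.204 was that of a typical expressed gene, since 51.1% had one at least as large. Rel, the gene of the subunit c-Rel, had 29.9, 56.5 and 44.6 TPM and an SD of 0.454 on the log2 scale, reached by 12.0% of expressed genes. For both genes mouse 2 was the highest and mouse 1 the lowest.

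Icam1 encodes the adhesion protein that binds the leukocyte integrins LFA-1 and Mac-1. It had 20.7, 45.1 and 32.1 TPM in mice 1, 2 and 3, and the TPM of mouse 2 was 2.18 times that of mouse 1. Its exons overlap those of the antisense gene Gm47079 by up to 511 nt in GENCODE M21, and whether the quantification used strand is not given in the sources used here, so part of its reads could belong to that gene.

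Ccl3 and Ccl4 encode the macrophage inflammatory proteins MIP-1 alpha and beta, which attract monocytes and other leukocytes. Ccl3 had 64.5, 82.6 and 80.4 TPM in mice 1, 2 and 3. Ccl4 had 25.5, 68.0 and 51.4 TPM. The neighbouring genes were therefore not spread alike: the ratio of mouse 2 to mouse 1 was 2.67 for Ccl4 and 1.28 for Ccl3. The ratio of Ccl3 to Ccl4 was 2.53, 1.21 and 1.56 in mice 1, 2 and 3. Their RefSeq spans on chromosome 11 (83647843-83649378 for Ccl3 and 83648624-83664683 for Ccl4) overlap, while no exons of the pair overlapped in GENCODE M21.

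Cxcl2, a chemokine that attracts neutrophils through CXCR2, had 3.21, 7.21 and 11.2 TPM in mice 1, 2 and 3. It was the only 1 of the 10 apart from Nfkbia whose highest value in TPM as deposited was in mouse 3, at 3.48 times the value of mouse 1. Its log2 SD of 0.775 was reached by 3.14% of expressed genes.

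Il1b, the gene of the pro-inflammatory cytokine interleukin-1 beta, varied more than the other 9 genes. It had 4.88, 26.1 and 14.9 TPM in mice 1, 2 and 3, which is 5.35 times as much in mouse 2 and 3.05 times as much in mouse 3 as in mouse 1. Its log2 SD of 1.12 was reached by 1.18% of expressed genes. Its exons overlap those of the antisense gene Il1bos by up to 25 nt. Tnf, the gene of tumor necrosis factor, had 19.5, 28.6 and 24.1 TPM and an SD of 0.265 on the log2 scale, which 35.4% of expressed genes reached.

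Over the 10 genes the mice stood in much the same order. All 10 were lowest in mouse 1, against 24.4% of expressed genes in TPM as deposited and 36% after scaling to a common upper quartile, under which all 10 were again lowest there. The highest mouse was mouse 2 for 8 of the 10, against 31.1% of expressed genes, and mouse 3 for 2, against 20.3%. After the scaling these counts were 7, against 33.9%, and 3, against 30.4%, since Ccl3 then stood highest in mouse 3. The same scaling lowered the share of expressed genes highest in mouse 1 from 48.6% to 35.6%. For 8 of the 10 genes mouse 2 was above mouse 3 and mouse 3 above mouse 1, an order held by 14.4% of expressed genes. After the scaling 7 of the 10 had this order, against 19.9%. These genes are known to respond to shared signals, so they are not 10 independent observations, and 3 mice with no second group do not say what sets the order.

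The median log2 SD over the 10 genes was 0.46, against 0.21 over all expressed genes. The highest mouse was at least 2-fold the lowest, on the TPM + 1 scale, for 4 of the 10 (Icam1, Ccl4, Cxcl2 and Il1b), against 8.57% of expressed genes. After upper-quartile scaling Tnfaip3 joined them, which made 5 of 10 against 8.63%. Mouse 1 carried most of this spread: without it 0 of the 10 genes had a 2-fold range, without mouse 2 there were 2, and without mouse 3 there were 3. Between mice 1 and 2 alone, 3 of the 10 (Icam1, Ccl4 and Il1b) were at least 2-fold higher in mouse 2, against 2.55% of expressed genes. After scaling there were 5, with Tnfaip3 and Cxcl2 added, against 3.04%. Between mice 1 and 3, 2 of the 10 (Cxcl2 and Il1b) were at least 2-fold higher in mouse 3, against 2.54%, and after scaling 3 of the 10, with Ccl4 added, against 3.18%.

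**Figure D3:**
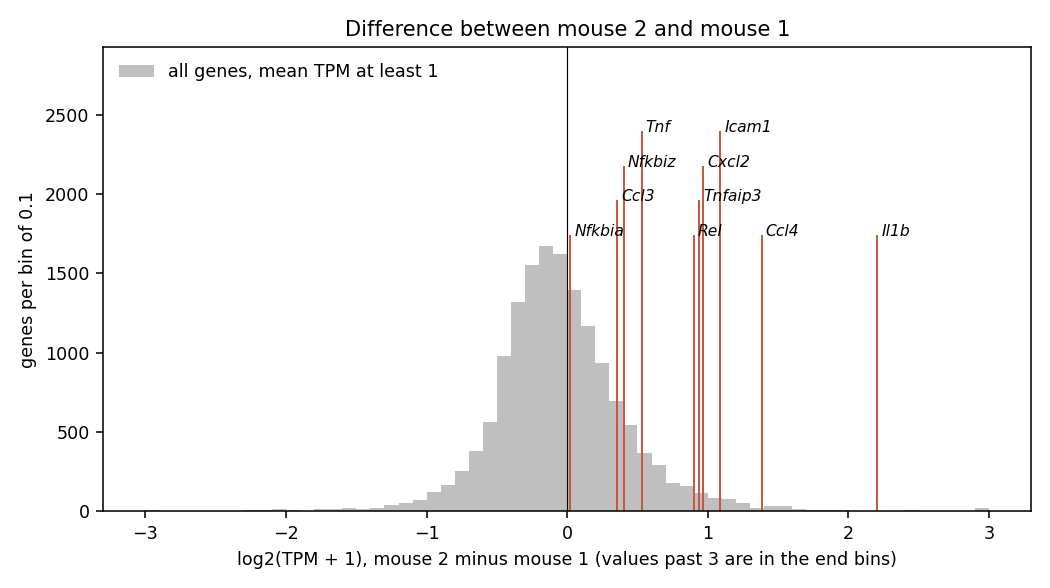
Number of expressed genes (y axis) in bins of 0.1 of the difference in log2(TPM + 1) between mouse 2 and mouse 1 (x axis), with a line for each of the 10 genes. All 10 lie to the right of 0, from Nfkbia at 0.02 to Il1b at 2.20; line heights only separate the names.

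The subunits of NF-kB did not all share this order. Nfkb1, which encodes the p105 precursor of p50, was the most abundant at 304, 223 and 168 TPM in mice 1, 2 and 3, and Rela, the gene of the p65 subunit, had 45.6, 42.2 and 37.4 TPM. Both were highest in mouse 1 and lowest in mouse 3. Relb had 20.6, 35.5 and 25.8 TPM and Nfkb2 had 24.7, 37.2 and 30.0 TPM, in the order of mice of Rel. The ratio of Nfkb1 to Rel was 10.2 in mouse 1, 3.95 in mouse 2 and 3.75 in mouse 3. Under both scalings 3 of the 5 subunits were lowest in mouse 1, against 24.4% and 36% of expressed genes. These were Relb, Nfkb2 and Rel, and Rel was already counted among the genes above. The other 2 were lowest in mouse 3, where 42.6% of expressed genes were lowest as deposited and 30.5% after scaling. A 2-fold range was found for 0 of the 5, against 8.57%.

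Among 14 IkB proteins and other brakes, a list that holds Nfkbia, Nfkbiz and Tnfaip3, 9 were highest in mouse 2, against 31.1% of expressed genes as deposited and 33.9% after upper-quartile scaling. Lowest in mouse 1 were 9 as deposited, against 24.4%, and 10 after the scaling, against 36%. Bcl3, an atypical nuclear IkB protein, had 13.8, 29.4 and 20.6 TPM in mice 1, 2 and 3. Nfkbie, the gene of IkB-epsilon, had 20.4, 37.8 and 30.6 TPM. Irak3, an inhibitor of Toll-like receptor signalling, went the other way, with 19.1, 11.4 and 18.2 TPM. As deposited 2 of the 14, Bcl3 and Tnip3, were at least 2-fold higher in mouse 2 than in mouse 1, against 2.55% of expressed genes, and after scaling Tnfaip3 made 3, against 3.04%.

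The kinases and adaptors upstream had a median log2 SD of 0.19, near the 0.21 of all expressed genes. Of 16, 0 had a 2-fold range as deposited and 1 after upper-quartile scaling, against 8.57% and 8.63% of expressed genes. Lowest in mouse 1 were 4 of the 16 as deposited and 9 after scaling, where the share of all expressed genes also went from 24.4% to 36%. Ikbkb, the gene of the catalytic kinase IKK-beta, had 124, 112 and 86.0 TPM, and Myd88, the adaptor of Toll-like and interleukin-1 receptors, had 69.8, 66.7 and 48.7 TPM.

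The list called activating receptors here has 14 genes and also holds the decoy receptor Il1r2, which does not signal. Of the 14, 11 were lowest in mouse 1 under both scalings, against 24.4% of expressed genes as deposited and 36% after upper-quartile scaling. A 2-fold range was found for 4 of the 14 under both, against 8.57% and 8.63%. Cd14, the co-receptor of lipopolysaccharide, had 2.81, 5.24 and 7.57 TPM in mice 1, 2 and 3, and Cd40 had 8.69, 18.4 and 14.1 TPM. Highest in mouse 1 were 3 of the 14 as deposited, against 48.6% of expressed genes, and 2 after the scaling, against 35.6%. Il1r1 and Il1r2 ran against the cytokine Il1b: the signalling receptor Il1r1 had 24.6, 8.32 and 6.29 TPM, and the decoy receptor Il1r2 had 10.2, 3.85 and 3.67 TPM. Mouse 1 was therefore the lowest for Il1b and the highest for both receptors, with Il1b at 0.199, 3.14 and 2.37 times the TPM of Il1r1 in mice 1, 2 and 3. These receptors were singled out after their values were seen.

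The genes that process and oppose interleukin-1 had a median log2 SD of 0.32, and 2 of 7 had a 2-fold range, against 8.57% of expressed genes. Casp1, the protease that matures the cytokine, had 37.4, 36.9 and 38.7 TPM, and Nlrp3, the sensor of the inflammasome, had 24.5, 36.1 and 24.1 TPM. Il1rn, the receptor antagonist, had 0.635, 0.809 and 2.81 TPM. Of the 7 genes on this list, 4 were lowest in mouse 1 as deposited, against 24.4% of expressed genes, and 6 after upper-quartile scaling, against 36%.

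Receptors of the ligands were measured in the same RNA. Ccr1, a receptor of CCL3, had 2.98, 3.23 and 5.15 TPM. Cxcr2, the receptor of CXCL2, had 25.6, 32.4 and 29.3 TPM, and Cxcr1 was listed at 0 in all 3 mice. The integrin genes that encode the partners of ICAM-1 included Itgal, with 113, 143 and 105 TPM, and Itgam, with 13.4, 23.6 and 60.0 TPM.

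The other inflammatory cytokines and chemokines were a mixed set. Of 22 listed, 15 were expressed, and of these 6 had a 2-fold range, against 8.57% of all expressed genes. Lowest in mouse 1 were 7 under both scalings, against 24.4% as deposited and 36% after upper-quartile scaling. Highest in mouse 1 were 7 as deposited and 6 after scaling, against 48.6% and 35.6%. Il6, Il10, Cxcl1, Cxcl3, Ccl7 and Csf3 stayed under 1 TPM in every mouse, and Ccl12 was listed at 0 in all. Ccl5 had 23.5, 52.4 and 45.0 TPM and Cxcl10 had 2.93, 10.8 and 8.06 TPM, both lowest in mouse 1. Ccl17, a chemokine of the receptor CCR4, ran the other way, with 98.9, 21.6 and 4.22 TPM. Osm, the gene of oncostatin M, had 31.7, 25.6 and 23.0 TPM.

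Of 19 other known NF-kB target genes, 17 were in the table and 16 were expressed. Of the 16, 7 were lowest in mouse 1 as deposited and 9 after upper-quartile scaling, against 24.4% and 36% of expressed genes. Highest in mouse 2 were 7 under both, against 31.1% and 33.9%, and 2 had a 2-fold range, against 8.57%. Cd83, a surface protein of activated antigen-presenting cells, had 33.7, 165 and 111 TPM in mice 1, 2 and 3. Birc3, an inhibitor of apoptosis, had 125, 149 and 123 TPM, and Traf1 had 67.1, 94.5 and 59.3 TPM. Bcl2a1b, 1 of several near-identical copies whose reads could be split between them, had 61.5, 90.9 and 68.6 TPM. Sod2, a mitochondrial superoxide dismutase, had 49.2, 38.4 and 35.1 TPM. The order of mouse 2 above mouse 3 above mouse 1 was held by 4 of the 16 as deposited and by 6 after scaling, against 14.4% and 19.9% of expressed genes.

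RNA-binding proteins that act on AU-rich mRNA were abundant. Zfp36, the gene of tristetraprolin, had 362, 662 and 452 TPM in mice 1, 2 and 3, and Zfp36l1 had 65.5, 153 and 94.2 TPM. Zfp36l2 went the other way, with 459, 321 and 254 TPM. Of the 6 genes of this list, 2 were lowest and 3 highest in mouse 1 under both scalings, against 24.4% and 48.6% of expressed genes as deposited and 36% and 35.6% after upper-quartile scaling.

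Other gene groups were lowest in mouse 1 as well, and their part in the result was not tested. Of 15 immediate early genes, which are switched on within minutes of a stimulus, 14 were highest in mouse 2, against 31.1% of expressed genes. Lowest in mouse 1 were 12 as deposited, against 24.4%, and 14 after upper-quartile scaling, against 36%. Their summed level was 2811, 5743 and 3718 TPM in mice 1, 2 and 3. Fos had 563, 1455 and 821 TPM. All 8 heat shock genes were lowest in mouse 1 and highest in mouse 3 under both scalings, against 24.4% and 20.3% of expressed genes as deposited and 36% and 30.4% after scaling, with sums of 3330, 7178 and 8476 TPM.

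Markers of mature cells that the bead enrichment could retain, and that can themselves express cytokines, also differed between mice. Under both scalings all 11 neutrophil markers were lowest in mouse 1, against 24.4% of expressed genes as deposited and 36% after upper-quartile scaling, and 10 were highest in mouse 3, against 20.3% and 30.4%, with sums of 2516, 6518 and 21571 TPM. Of 9 expressed monocyte and macrophage markers 7 were lowest in mouse 1 as deposited and 8 after scaling, against the same shares of 24.4% and 36%, and the list summed to 731, 1124 and 2156 TPM. The macrophage markers C1qa and Ms4a7 did not exceed 1.08 TPM in any mouse. Of 8 dendritic cell markers, which include Flt3, 7 were lowest in mouse 1 under both scalings, against those shares, and 6 highest in mouse 2, against 31.1% and 33.9%, with sums of 541, 1032 and 703 TPM, the order of mice of 8 of the 10 genes. Clec9a, a marker of conventional dendritic cells, had 184, 415 and 273 TPM. The 10 immature myeloid markers, which also include Flt3, did not share this: 2 were lowest in mouse 1 as deposited, against 24.4%, and 3 after scaling, against 36%.

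Lymphoid, erythroid, platelet, mast cell and stromal markers were at lower summed levels. B cell markers summed to 49.4, 91.5 and 126 TPM in mice 1, 2 and 3, T and NK cell markers to 162, 114 and 160, and mast cell and basophil markers to 87.2, 31.0 and 35.5. Erythroid markers summed to 37.8, 21.9 and 70.3 TPM, megakaryocyte markers to 66.2, 42.6 and 83.4, and endothelial and stromal markers to 18.4, 9.08 and 8.18. Single markers differed in level within a list: the highest value in any mouse was 0.978 TPM for Cd3e, 1.02 for Cd3g and 7.13 for Cd3d, which encode parts of the T cell receptor complex, 13.1 for the B cell gene Cd79b, 51.9 for the mast cell gene Cpa3 and 0.470 for the endothelial gene Cdh5. None of these lists had a gene listed at 0 in all mice. In bulk RNA, more cells of a type and more RNA per cell cannot be told apart.

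**Figure D4:**
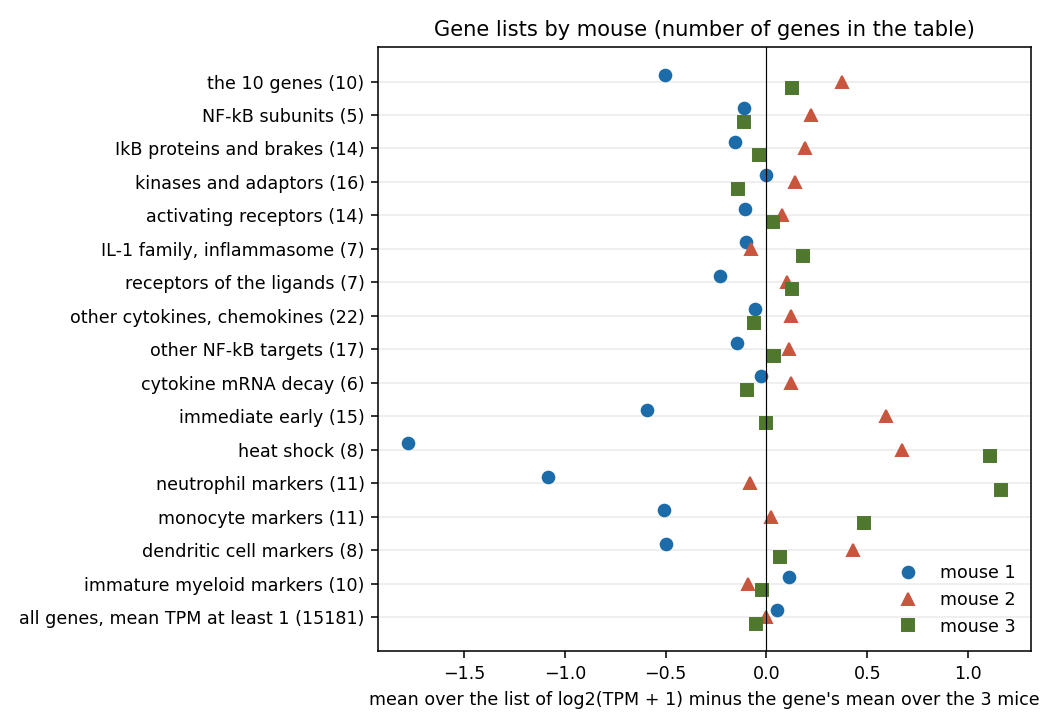
For each gene list (y axis, with the number of genes in the table), the mean over its genes of log2(TPM + 1) after subtracting each gene's mean over the 3 mice (x axis); symbols are mice. The 10 genes stand at -0.50, 0.38 and 0.12 in mice 1, 2 and 3, immediate early genes at -0.59, 0.59 and 0.00, and expressed genes as a whole at 0.05, 0.00 and -0.05.

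The genes with the most similar pattern were sought among 9506 others with a mean of at least 10 TPM. Likeness was the Euclidean distance, over the 3 mice, between a gene's centred log2(TPM + 1) values and the mean of the 10 genes. Among the 5 nearest were Chst15, a sulfotransferase gene (12.8, 23.8 and 20.2 TPM in mice 1, 2 and 3), Cd68, a marker of mononuclear phagocytes (68.2, 124 and 107), A730061H03Rik (6.80, 12.8 and 10.7) and Gadd45g, a stress-response gene (7.64, 15.1 and 12.9). The distances of these 4 ran from 0.026 to 0.044, and 36 genes (0.379%) lay within 0.1. With 3 mice such closeness is easily met and is a description only.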

How the data were processed

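RNA of c-Kit-enriched leukemic spleen cells from 3 mice was sequenced. Per the labels' protocols the RNA had an integrity number above 8 and was read as 150 nt pairs, and the labels name both ribosomal depletion and an mRNA kit. The authors deposited 1 table of values per gene symbol. Its name calls them log2 FPKM, but they are linear and sum to nearly the same total per mouse, so the deposited values were taken to be TPM. The submitters' processing notes name kallisto and mm10 with no version. The annotation is not given in the sources used here. The table's 3 further per-sample columns are samples of another series and were left out, although the choice of genes had called for reading them beside the knockout values.

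Of 28987 rows, 795 without a symbol (0.532% to 0.608% of the column sums) and 27 with a date in its place were left out, and 90 symbols on several rows were summed. For each gene the mean, SD (n = 3), highest and lowest mouse were computed on TPM and on log2(TPM + 1). Genes and lists are described by counts beside the same over all genes with a mean of at least 1 TPM. The genes, lists and motifs were chosen with earlier results of these data known. Named genes are the 10, members of the lists, and the 5 most similar genes; a few of these are not reported here. Of the listed symbols, 3 were matched by a RefSeq synonym and 3 were not matched. Calls were tested on simulated data. Alternatives covered scaling, pseudocount, the filter on low values and each mouse left out. Python 3.11.15, numpy 2.4.6, pandas 2.3.3 and matplotlib 3.10.9 were used.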

Additional observations from a re-analysis of the deposited data

How the results depend on the processing

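No paired analysis was possible because all mice belong to 1 group. All 10 genes were lowest in mouse 1 after upper-quartile scaling too, the only alternative that could have changed this count. The filters removed none of the 10, a pseudocount does not change the order of mice, and leaving out another mouse cannot change which gene is lowest in mouse 1. The number of genes with a 2-fold range was 4, and ranged from 0 (without mouse 1) to 3 when a mouse was left out, with 2 without mouse 2. The number highest in mouse 3 was 2, and with a mouse left out ranged from 2 to 10, the latter without mouse 2, when only mouse 1 is left to compare with. The median log2 SD ranged from 0.26 (without mouse 1) to 0.65 across the recomputations that left out a mouse. A pseudocount of 0.1 moved the median level of the activating receptors from 3.46 to 3.34 on the log2 scale. The levels of the 10 genes moved by less than their SD in all 50 recomputations, and those of the lists in 54 of 55. Most of these counts were fixed in advance. With 3 mice, leaving 1 out cannot move a mean by the SD of those mice. Upper-quartile scaling is to the mean of the mice and hardly shifts a mean over them. The counts are therefore no measure of robustness. Depth is unknown, so counting error in the low values of Cxcl2 and Il1b cannot be stated.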
